A study of Mus musculus with 18 samples.

Results

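The chaperonin CCT, also called TRiC, is built from 8 related subunits, each encoded by its own gene, and only the gene of the theta subunit, Cct8, lies in the stretch of mouse chromosome 16 that is duplicated in Dp16 mice. The members described here are Cct8 and the genes of its 7 partners, Tcp1, Cct2, Cct3, Cct4, Cct5, Cct6a and Cct7, found by symbol among the 55385 genes of the tables. All 8 passed the filter on low counts and were tested with 18717 genes in all. They were chosen by complex membership and position, and not by a measured value, but with earlier results of these data known.

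Polyadenylated RNA of brain cortex was sequenced from 18 adult mice aged 17.1 to 18 weeks, with 3 males and 3 females per genotype. The 6 Dp16 mice carry a segmental duplication that gives 3 copies, in place of 2, of the genes from Lipi to Zbtb21, and it is used as a model of trisomy 21. The 6 Dp16_2xIFNRs mice carry the same duplication, with the dosage of the interferon receptor genes inside it brought back to normal, and Cct8 remains in the duplicated part. The 6 WT mice are C57BL/6J, and the labels name no drug, no diet and no other allele for any group. The duplication is not limited to a cell type, so that no cell of the cortex serves as an unaltered control within these animals. The labels give each library as a separate sample of its genotype, so that p-values measure the spread between these samples. The library names also hold a number that libraries of different genotypes share, 5 of the 12 numbers covering 11 libraries, and the labels do not say what it stands for. Dp16 and Dp16_2xIFNRs were compared with the same 6 WT libraries, and the 2 comparisons are therefore not independent.

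In the assembled complex 2 rings of 8 subunits sit back to back, each subunit has a fixed place in its ring, and a protein chain folds in the cavity while ATP is bound and split. Actins and tubulins are its best known clients, and many proteins with WD40 repeats depend on it as well. Because each ring takes 1 copy of every subunit, the relative amounts of the 8 subunits are of interest when the gene of 1 of them is duplicated. The libraries measure transcripts only, and protein was not measured.

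Library totals ran from 46346019 to 67281449 counts in Dp16, from 47912340 to 61150849 in Dp16_2xIFNRs and from 47554526 to 52006799 in WT. No library held fewer than 3197 counts of any of the 8 subunits, so that counting error was small beside the spread between animals. Markers of cortical neurons and glia were present throughout. The 5 excitatory neuron markers summed to between 5877 and 6977 CPM, counts scaled to a common library size, in Dp16, 5903 to 6909 in Dp16_2xIFNRs and 5811 to 7145 in WT. The sum of 4 choroid plexus markers varied far more, from 6.51 to 376 CPM in Dp16, with the highest value in replicate 3, from 6.41 to 17.7 in Dp16_2xIFNRs and from 4.96 to 193 in WT. WT replicate 6 had the lowest sums of the excitatory neuron, astrocyte, microglia and endothelial markers among the WT libraries, with 232 CPM for microglia. Values without both Dp16 replicate 3 and WT replicate 6 are therefore given below where a result rests on them.

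Cct8, on the minus strand of chromosome 16 from 87483326 to 87495873 (GRCm38, GENCODE release M21), was higher in both duplication genotypes. Its level was between 174 and 196 CPM in Dp16 libraries, with a median of 192, between 187 and 199.9 in Dp16_2xIFNRs libraries, with a median of 193, and between 115 and 133 in WT libraries, with a median of 122. Every library of either duplication genotype lay above every WT library, and the 2 duplication genotypes overlapped. The means were 189.5 ± 7.92 CPM in Dp16, 193 ± 6.07 in Dp16_2xIFNRs and 124 ± 8.32 in WT (SD, n = 6 each).

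Cct8 rose by 0.62 on the log2 scale in Dp16 over WT (SE 0.0430, adjusted p = 2.07e-08, edgeR's quasi-likelihood test), a fold of 1.53 with a 95% interval of 1.44 to 1.63. It rose by 0.64 in Dp16_2xIFNRs over WT (SE 0.0430, adjusted p = 1.17e-08), a fold of 1.56 with an interval of 1.47 to 1.66. Both intervals include 1.5, the ratio of the copy numbers, which is 0.58 on the log2 scale. By p-value Cct8 ranked 6 of 18717 genes in the first comparison and 5 in the second, in which 0.636% and 0.737% of all genes were called higher. Genes whose libraries lay wholly above those of WT, as Cct8 did, made up 0.721% and 0.93% of those tested. Between Dp16_2xIFNRs and Dp16 the difference in Cct8 was 0.03 (interval -0.06 to 0.12, adjusted p = 1), and here 0.0214% of genes were called. Without WT replicate 6 and Dp16 replicate 3 the 2 differences from WT were 0.63 (adjusted p = 3.53e-07) and 0.66 (adjusted p = 9.85e-08).

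**Figure D1:**
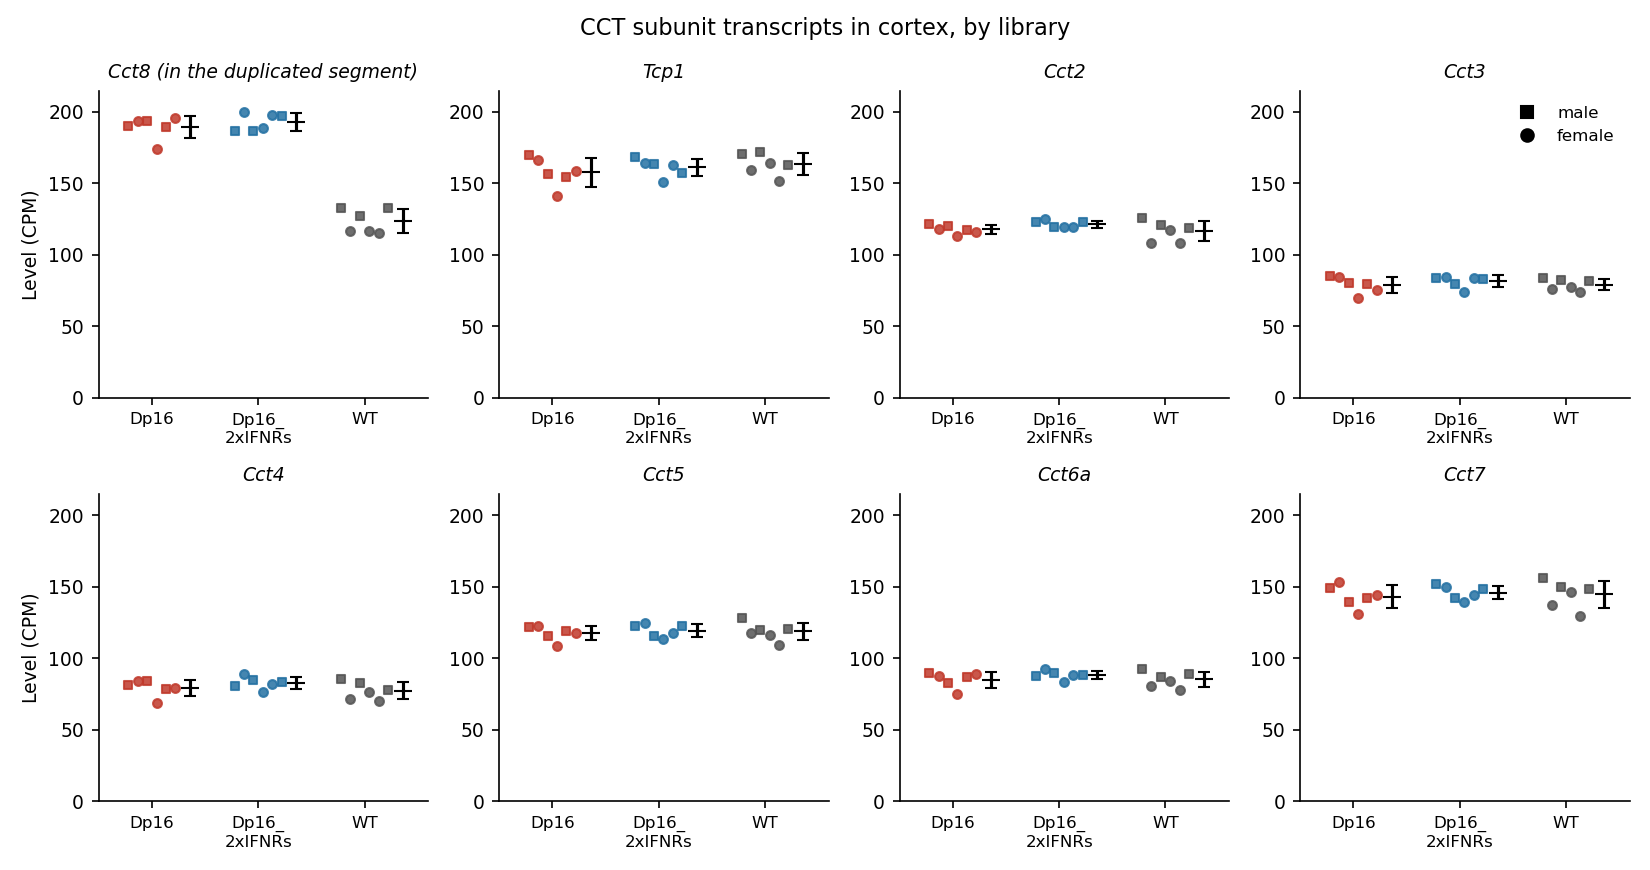
Level of each CCT subunit transcript in CPM, 1 point per library (squares males, circles females), with the mean and SD of each genotype (n = 6). Cct8 lies between 174 and 199.9 CPM in both duplication genotypes and between 115 and 133 CPM in WT, whereas the points of the other 7 subunits overlap between genotypes.

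None of the 7 partner transcripts was called in any comparison, and the libraries of Dp16 and of Dp16_2xIFNRs overlapped those of WT for all 7. Over all genes 0.919% did not overlap between Dp16 and WT, in either direction, and 1.34% between Dp16_2xIFNRs and WT. In Dp16 over WT, 0 of 7 were called by edgeR, where 0.748% of all genes were called in either direction and 0.112% were called lower. At an unadjusted p under 0.05, again 0 of 7 passed, where 8.84% of all genes did. DESeq2 and limma-voom also called 0 of 7. The adjusted p-values ran from 0.830 to 0.998. Of the 7 differences 2 were positive and 5 negative, and their median of -0.00 on the log2 scale was that of all genes tested, -0.00.

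In the ring the theta subunit sits between the zeta subunit, encoded by Cct6a, and the eta subunit, encoded by Cct7. Cct6a (chromosome 5, 129786998 to 129846371) had 74.9 to 89.99 CPM in Dp16 with a median of 87.1, 83.3 to 92.4 in Dp16_2xIFNRs with a median of 88.3, and 78.0 to 92.5 in WT with a median of 85.6. Cct7 (chromosome 6, 85451514 to 85468475) had 131 to 154 CPM in Dp16 with a median of 143, 139 to 152 in Dp16_2xIFNRs with a median of 147, and 129.9 to 156 in WT with a median of 147. The ranges of the 3 genotypes overlapped for both genes, and that of Dp16_2xIFNRs was the narrowest. In Dp16 over WT the log2 differences were -0.00 for Cct6a (SE 0.0461, interval -0.10 to 0.09) and -0.01 for Cct7 (SE 0.0449, interval -0.11 to 0.08). The third subunit of this side of the ring is gamma, encoded by Cct3 (chromosome 3, 88297116 to 88321767). It had 70.1 to 85.2 CPM in Dp16 with a median of 80.1, 74.2 to 84.8 in Dp16_2xIFNRs with a median of 83.5, and 73.8 to 83.6 in WT with a median of 79.7. Its difference in Dp16 over WT was -0.00 (SE 0.0456, interval -0.10 to 0.09).

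The other side of the ring holds the subunits that, in work on yeast, bind ATP most tightly: alpha, beta, delta and epsilon. Tcp1, the gene of alpha and the first of the family to be described, in the mouse t-complex, lies on chromosome 17 from 12915701 to 12925067. Its level was 141 to 169.8 CPM in Dp16 with a median of 158, 151 to 169 in Dp16_2xIFNRs with a median of 163, and 152 to 172 in WT with a median of 164. Of the 7 partners it had the lowest difference in Dp16 over WT, -0.05 (SE 0.0436, interval -0.14 to 0.04, adjusted p = 0.830). Cct4, the gene of delta (chromosome 11, 22990519 to 23003780), had the highest. It stood at 68.8 to 84.4 CPM in Dp16 with a median of 80.4, at 76.8 to 89.0 in Dp16_2xIFNRs with a median of 83.0, and at 70.4 to 85.5 in WT with a median of 77.2. The difference in Dp16 over WT was 0.04 (SE 0.0517, interval -0.07 to 0.14, adjusted p = 0.929), so that neither end of the range of partners passed the test.

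Cct2, the gene of beta (chromosome 10, 117051001 to 117063814), in which inherited variants cause a retinal dystrophy in people, varied least between libraries. It had 113 to 122 CPM in Dp16 with a median of 118, 119 to 125 in Dp16_2xIFNRs with a median of 121, and 108 to 126 in WT with a median of 118. Its difference in Dp16 over WT was 0.02 (SE 0.0359, interval -0.06 to 0.09). Cct5, the gene of epsilon (chromosome 15, 31590800 to 31601804), is known in people for a hereditary sensory neuropathy. It had 109 to 122 CPM in Dp16 with a median of 118, 114 to 125 in Dp16_2xIFNRs with a median of 120.2, and 109 to 128 in WT with a median of 119. The difference in Dp16 over WT was -0.01 (SE 0.0398, interval -0.10 to 0.07). Taken over the 7 partners, the 95% intervals of Dp16 over WT reached from -9.39% to 10.5% at their widest, so that changes of the size seen for Cct8 lay outside every one of them and changes of a few percent did not.

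In Dp16_2xIFNRs over WT the 7 differences ran from -0.02 for Tcp1 to 0.10 for Cct4, with 6 positive, 1 negative and a median of 0.04, beside 0.00 for all genes. Again 0 of 7 were called by edgeR, DESeq2 or limma-voom, where edgeR called 1.05% of all genes, and 0 of 7 had an unadjusted p under 0.05 in the edgeR fit, where 11.5% of all genes did. Cct2 and Cct4 passed that unadjusted limit without WT replicate 1 (adjusted p = 0.458 and 0.423, edgeR), in females alone (adjusted p = 0.327 and 0.368, edgeR) and with limma on RPKM, and Cct4 also without Dp16_2xIFNRs replicate 1 (adjusted p = 0.394, edgeR). The smallest p belonged to Cct4, with an adjusted p of 0.493 (SE 0.0517, 5 of 6 libraries above the WT mean). The intervals reached from -7.42% to 15.4%. Subunit levels varied together between libraries, so that the signs counted here are not independent observations. In Dp16_2xIFNRs over Dp16 all 7 differences were positive, from 0.02 to 0.06 (median 0.04, all genes 0.00), and so was that of Cct8. None was called by edgeR and none had an unadjusted p under 0.05, the intervals reached from -0.07 to 0.17, and the adjusted p was 1 for each. The libraries of the 2 genotypes overlapped for all 8 subunits, where 0.107% of all genes did not overlap in either direction and 0.0321% lay wholly higher.

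**Figure D2:**
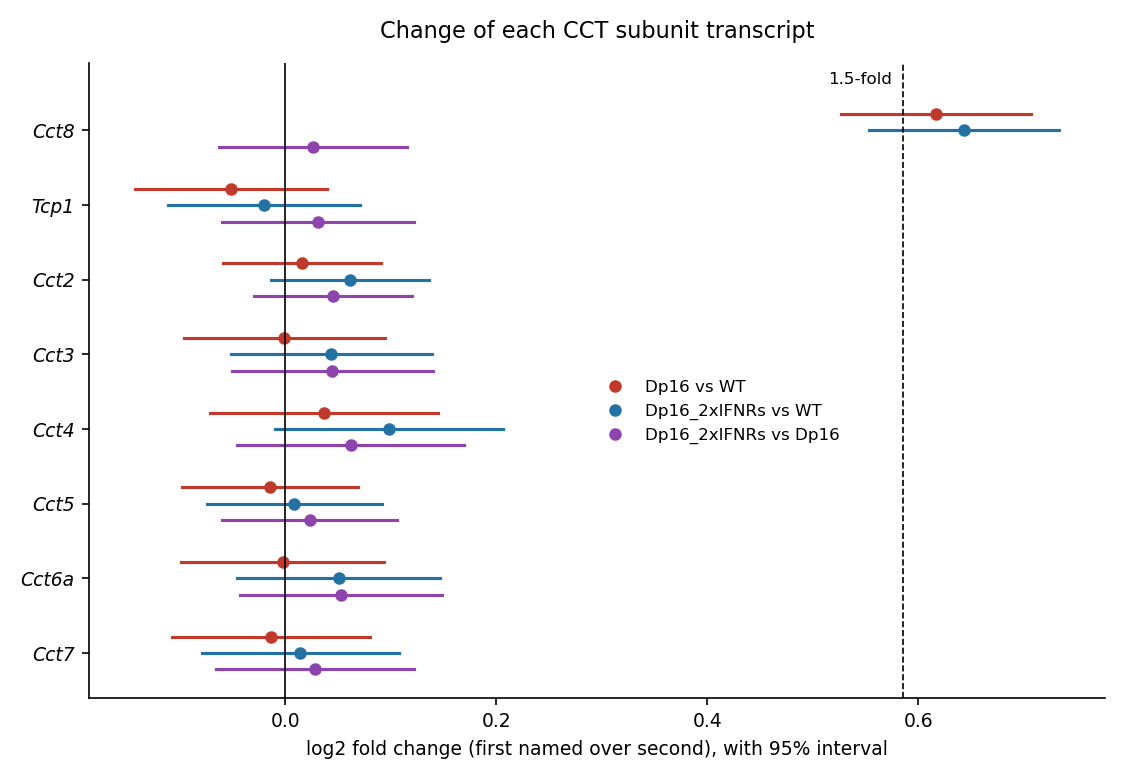
Log2 fold change of each CCT subunit in the 3 comparisons, with 95% intervals from the edgeR fit; the dashed line marks a fold of 1.5. Cct8 lies at 0.62 and 0.64 against WT with intervals that include the dashed line, and every interval of the other 7 subunits lies below it.

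The relative amounts of the subunits differed between genotypes accordingly. Per library, the log2 ratio of Cct8 to the geometric mean of the other 7, from CPM, was 0.75 to 0.86 in Dp16 with a median of 0.83, 0.73 to 0.85 in Dp16_2xIFNRs with a median of 0.81, and 0.12 to 0.27 in WT with a median of 0.19. No library of either duplication genotype overlapped WT. On a linear scale Cct8 stood at 1.76 ± 0.0508 times the geometric mean in Dp16, 1.74 ± 0.0558 times in Dp16_2xIFNRs and 1.14 ± 0.0377 times in WT (SD, n = 6 each). The difference of the mean log2 ratios was 0.62 for Dp16 over WT and 0.61 for Dp16_2xIFNRs over WT, and -0.02 for Dp16_2xIFNRs over Dp16. These ratios are descriptions of chosen genes and carry no p-value. CPM are not scaled for gene length, so that differences of the ratio between genotypes can be read, but not its size. On log2(RPKM + 1) the mean ratio was 0.67 ± 0.0411 in Dp16, 0.66 ± 0.0459 in Dp16_2xIFNRs and 0.06 ± 0.0466 in WT.

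Against each partner singly, the log2 ratio of Cct8 was higher in Dp16 than in WT by 0.58 for Cct4 up to 0.67 for Tcp1. Against its ring neighbours the shift was 0.62 for Cct6a and 0.63 for Cct7. In Dp16_2xIFNRs it ran from 0.54 for Cct4 to 0.66 for Tcp1. The libraries of each duplication genotype and of WT did not overlap in 7 of 7 ratios, which all share the same Cct8 values. In Dp16_2xIFNRs over Dp16 the 7 ratios differed by -0.04 to 0.00, and 7 of 7 overlapped.

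Within genotypes the ratio of Cct8 to its partners varied less than either level. The SD within genotypes, pooled on the log2 scale, was 0.0713 for Cct8, 0.0711 for the mean of the 7 partners and 0.0453 for their ratio. Levels of single partners varied by 0.0576 for Cct2 to 0.0988 for Cct4. Set against the mean of the other 6 partners, the spread was 0.0270 for Cct7 to 0.0496 for Cct4. The levels come from the same libraries and share their depth and composition, and the part of these in the spread was not tested.

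**Figure D3:**
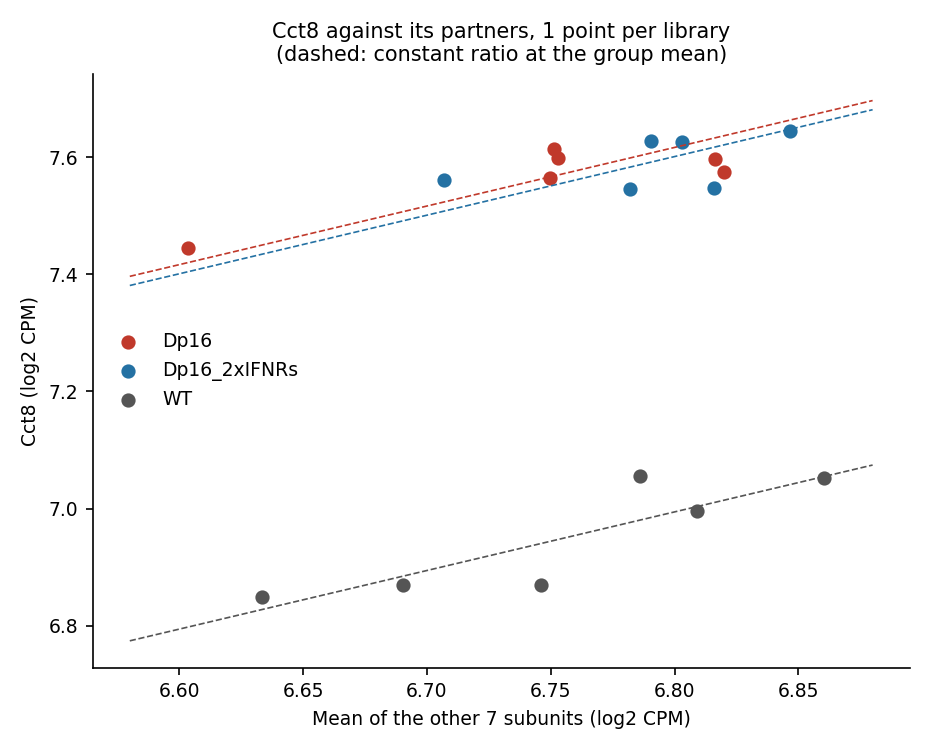
Cct8 against the mean of the other 7 subunits, both in log2 CPM, 1 point per library; each dashed line has a constant ratio at the mean of its genotype. The points of both duplication genotypes lie along lines at ratios of 0.82 and 0.80, above the WT line at 0.19. Partner levels run from 6.60 to 6.82 in Dp16, from 6.71 to 6.85 in Dp16_2xIFNRs and from 6.63 to 6.86 in WT.

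Comparison of levels between subunits needs values per length, for which the deposited RPKM were used. WT cortex held 63.7 ± 2.98 RPKM of Cct5, 58.9 ± 3.56 of Cct7, 56.8 ± 2.30 of Tcp1, 56.4 ± 3.20 of Cct2, 53.0 ± 3.16 of Cct6a, 51.3 ± 3.61 of Cct8, 34.6 ± 1.72 of Cct3 and 31.0 ± 2.24 of Cct4. Only between Cct8 and Cct3 did neighbours in this order not overlap in their WT libraries, so that 6 subunits formed an upper group and Cct3 and Cct4 a lower one. Cct8 ranked 6 of 8 in every WT library. In every Dp16 and every Dp16_2xIFNRs library it ranked 1, at 79.1 ± 3.75 and 80.8 ± 3.45 RPKM, and its libraries did not overlap those of Cct5, which came next at 63.5 ± 2.36 and 64.8 ± 2.36 RPKM.

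The order of the subunits and the make-up of the upper group depended on the length assigned to each gene. For Cct6a the RPKM used a length of 1599 bases, whereas its principal transcript in GENCODE release M21 has 2454. With CPM per kilobase of the principal transcript, Cct6a came 7 of 8 in WT, at 34.8 ± 2.17, and Tcp1 came first, at 66.9 ± 3.04. Again only Cct8 and Cct3 were neighbours whose WT libraries did not overlap, and Cct6a now lay in the lower group with Cct3 and Cct4. Cct8 then ranked 5 in every WT library and again 1 in every library of both duplication genotypes. Cct4 was the lowest of the 8 with either length.

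Of the summed RPKM of the 8 subunits, Cct8 made up 17.6% to 18.7% in Dp16, 17.3% to 18.6% in Dp16_2xIFNRs and 12.1% to 13.2% in WT. The means were 18.2% ± 0.419 in Dp16, 18.1% ± 0.475 in Dp16_2xIFNRs and 12.6% ± 0.370 in WT (SD, n = 6 each). An even share would be 12.5%. If the Cct8 value of each WT library alone were multiplied by 1.5, its share there would be 17.8% ± 0.490, with a range of 17.1% to 18.6%, which overlaps the observed values of both duplication genotypes. The summed RPKM was 434 ± 19.3 in Dp16, 447 ± 13.4 in Dp16_2xIFNRs and 406 ± 21.6 in WT. Without Cct8 the sums were 355 ± 16.1 in Dp16, 366 ± 10.8 in Dp16_2xIFNRs and 355 ± 18.3 in WT.

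**Figure D4:**
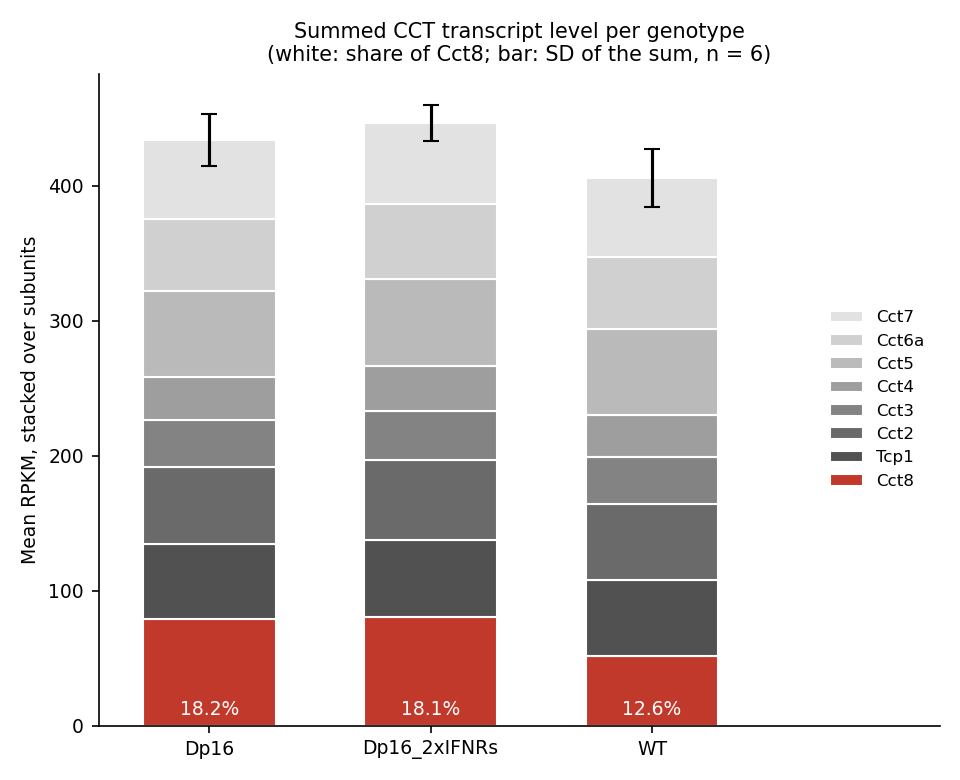
Mean RPKM of the 8 CCT subunits, stacked by genotype, with the SD of the sum over 6 libraries; Cct8 is the lowest block and its share of the sum is printed in white. The share is 18.2% and 18.1% in the duplication genotypes and 12.6% in WT, while the sum of the other 7 is 355, 366 and 355 RPKM in Dp16, Dp16_2xIFNRs and WT.

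Within the segment, Cct8 was at rank 10 of the 115 tested genes by WT level in CPM. Of these the interferon receptor genes are back at 2 copies in Dp16_2xIFNRs. The median fold of these 115 genes was 1.46 in Dp16 over WT, and 34 of them had a larger log2 fold change than Cct8, but only 4 had a smaller p. In Dp16_2xIFNRs over WT the median was 1.47, 26 genes had a larger change and 3 a smaller p. Among the 28 segment genes with a mean of at least 50 CPM over all 18 libraries, 5 had a larger change than Cct8 in Dp16 and 3 in Dp16_2xIFNRs. The quartiles of the segment in Dp16, 0.46 and 0.63 on the log2 scale, enclosed the 0.62 of Cct8, whereas in Dp16_2xIFNRs they were 0.41 and 0.63 and the 0.64 of Cct8 lay above the upper one. Of the 115 segment genes 68 were called higher in Dp16 and 63 in Dp16_2xIFNRs.

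The tested genes next to Cct8 were above WT in both duplication genotypes. N6amt1, which encodes a methyltransferase subunit, had a fold of 1.51 in Dp16 over WT (adjusted p = 3.00e-06) and 1.51 in Dp16_2xIFNRs over WT. Ltn1, the ubiquitin ligase of stalled ribosomes, had folds of 1.46 (adjusted p = 1.53e-05) and 1.498, and Rwdd2b had folds of 1.55 (adjusted p = 7.71e-06) and 1.53. Bach1, a transcription factor that binds haem, had folds of 1.35 (adjusted p = 0.00109) and 1.34. The folds of the scarcer B130034C11Rik (1.33 and 1.30), Map3k7cl (1.25 and 1.27) and 2810407A14Rik (1.48 and 1.33) were not called, with at most 1.74 ± 0.449 CPM in Dp16. Of the 8 neighbours only Rwdd2b had a larger fold than Cct8 in Dp16 and none in Dp16_2xIFNRs, and Cct8 had the smallest standard error.

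Usp16, which encodes a deubiquitinase of histone H2A, runs on the plus strand from 87454703 to 87483517 and meets the end of Cct8, so that exons of the 2 genes overlap. It had 29.1 ± 4.36 CPM in Dp16, 31.5 ± 2.74 in Dp16_2xIFNRs and 20.7 ± 3.19 in WT. Its fold was 1.41 in Dp16 over WT (adjusted p = 0.0249) and 1.52 in Dp16_2xIFNRs over WT (adjusted p = 0.00341). The first call was lost on omission of any 1 of 7 libraries, and the highest adjusted p of these fits, 0.0993 (edgeR), came without Dp16 replicate 5. Of 15 other alternatives 9 kept the first call, and males alone, females alone and limma on RPKM were among those that lost it. The second call was kept by 14 of 15 and was lost in males alone. The libraries mark strand, but the strand setting of the counting is not given in the sources used here, so that reads of the shared stretch cannot be told apart between the genes here.

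**Figure D5:**
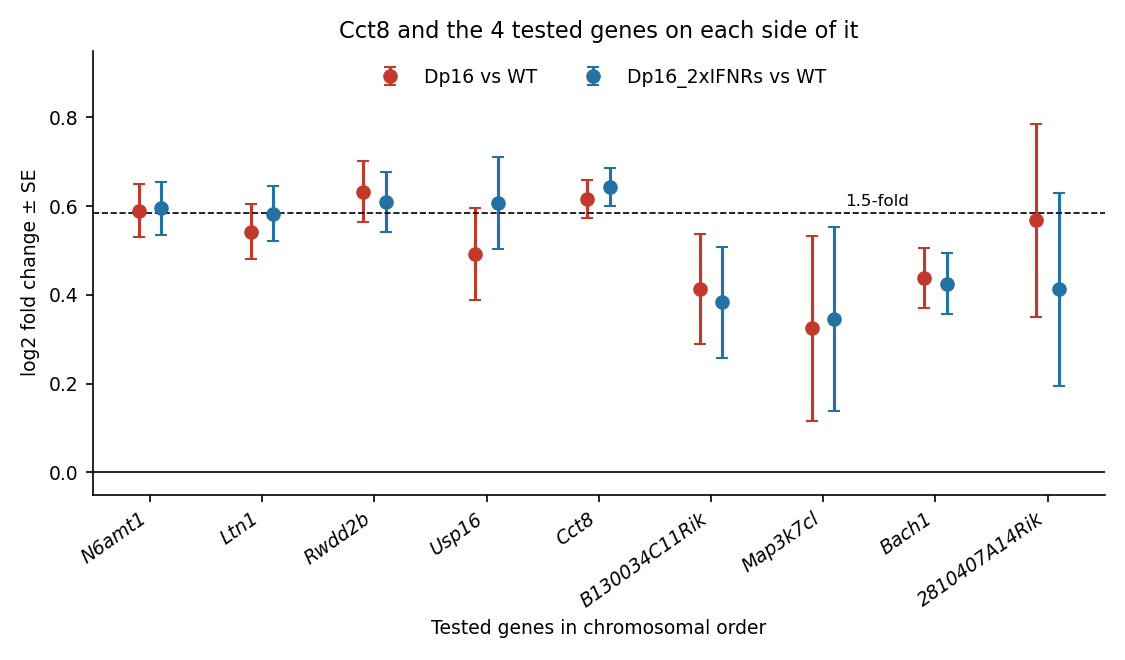
Log2 fold change with its SE of Cct8 and of the 4 tested genes on each side of it, in chromosomal order, for Dp16 over WT and Dp16_2xIFNRs over WT; the dashed line marks a fold of 1.5. All values lie above 0, with Cct8 at 0.62 and 0.64 and the widest error bars at Map3k7cl and 2810407A14Rik.

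Other members overlap genes on the opposite strand as well, and none of these partners was called. Around Tcp1 these are Mrpl18, a mitochondrial ribosomal protein gene, with differences of 0.03 in Dp16 over WT and -0.01 in Dp16_2xIFNRs over WT, and Acat3. Acat3 had 3.96 ± 0.477 CPM in Dp16, 3.52 ± 0.553 in Dp16_2xIFNRs and 4.70 ± 0.444 in WT, with differences of -0.25 (adjusted p = 0.519) and -0.41 (adjusted p = 0.0901). Psph, an enzyme gene of serine synthesis that overlaps Cct6a, differed by 0.05 and 0.14, and Pradc1, which overlaps Cct7, by -0.08 and -0.09. Reads of the near relatives of the subunits were scarce. Cct6b, the testis form of the zeta subunit, had 82 counts over all libraries, 31 in Dp16, 33 in Dp16_2xIFNRs and 18 in WT. Cct8l1 had 67 counts, 19 in Dp16, 24 in Dp16_2xIFNRs and 24 in WT, Cct3-ps1 had 12 in all and Tcp1-ps1 had 0. Of the 3 listed germ cell genes, Prm1 and Tnp1 were at 0 in every library. The other, Ddx4, had 2.21 ± 0.609 CPM in Dp16, 2.30 ± 0.411 in Dp16_2xIFNRs and 1.92 ± 0.263 in WT. It was not called by edgeR in any comparison.

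The genes with the most similar profile over the 18 libraries were found by the root mean square difference in log2 CPM, each gene taken relative to its WT mean. For Cct8 these were Wrb at 0.0653, Mrpl39 at 0.0695, Gart at 0.0704, Dnajc28 at 0.0782 and Cryzl1 at 0.0798, all in the duplicated segment, where the median over all genes was 0.555. Of the 100 nearest genes 60 lay in the segment. The 7 partners stood at 0.463 for Cct4 to 0.548 for Tcp1 from Cct8. Profiles relative to WT include the shift of duplicated genes in both duplication genotypes. That shift by itself places segment genes near Cct8 and the partners far from it. These distances therefore do not say how Cct8 and its partners varied within genotypes. For the mean of the 7 partners the nearest genes were Ndufa9 of mitochondrial complex I at 0.0267, the citrate cycle gene Idh3a at 0.0303, Morf4l1 at 0.0316, the lysyl-tRNA synthetase gene Kars at 0.0323 and Arf1 at 0.0332. Here the median over all genes was 0.196 and none of the 100 nearest lay in the segment. Each partner was also set against the mean of the other 6. Of 18710 genes compared, 1 was nearer to that mean than Cct7, 4 than Cct5, 10 than Cct6a, 14 than Cct3, 71 than Cct2, 441 than Tcp1 and 835 than Cct4. All these genes were measured in the same libraries and share their depth and composition. The genes compared were not matched for level, and the part of level in these ranks was not tested.

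No subunit was called for sex or for an interaction of genotype and sex, in a data set where 12 genes were called for sex and 0 for either interaction by edgeR. In WT all 3 males lay above all 3 females for 7 of the 8 subunits, the exception being Tcp1, where 7.95% of all genes did so. In Dp16 and in Dp16_2xIFNRs this held for 0 of 8, where 3.56% and 2.59% of all genes did. Subunit levels varied together between libraries, so that the 7 counted in WT are not independent observations. Cct8 in WT had 131 ± 3.06 CPM in males and 116 ± 0.973 in females. Dp16 males had 191 ± 2.32 and females 188 ± 11.97 CPM, and Dp16_2xIFNRs males had 190.4 ± 6.14 and females 195 ± 5.96 (SD, n = 3 each). The interaction for Dp16_2xIFNRs was -0.21 on the log2 scale in males over females (adjusted p = 0.826, unadjusted p = 0.0109 from the same edgeR fit), and that for Dp16 was -0.15 (adjusted p = 1.00). Within males alone Cct8 differed from WT by 0.54 in both Dp16 and Dp16_2xIFNRs (adjusted p = 0.00262 each, edgeR), and within females alone by 0.69 in Dp16 and 0.76 in Dp16_2xIFNRs (adjusted p = 0.000695 and 0.000518). The 95% interval of the last value, 0.63 to 0.89, lies above the log2 of 1.5, and the other 3 include it. The mean of the 7 partners in WT was 6.82 log2 CPM in males and 6.69 in females. The ratio of Cct8 to the partners was 0.80 ± 0.0468 in Dp16 males and 0.83 ± 0.0421 in Dp16 females, 0.77 ± 0.0467 and 0.83 ± 0.0289 in Dp16_2xIFNRs males and females, and 0.22 ± 0.0460 and 0.17 ± 0.0459 in WT males and females.

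The sequence before the start of Cct8, the subunit that changed, is shown beside that of Cct7, the partner nearest to the mean of the others. Both are from RefSeq on GRCm38.p6 and give the 250 bases before the annotated start, 5′ to 3′ on the strand of the gene, at chr16:87495870-87496119 on the minus strand for Cct8 and chr6:85451255-85451504 on the plus strand for Cct7. Capitals mark the motifs found on either strand.
Cct8: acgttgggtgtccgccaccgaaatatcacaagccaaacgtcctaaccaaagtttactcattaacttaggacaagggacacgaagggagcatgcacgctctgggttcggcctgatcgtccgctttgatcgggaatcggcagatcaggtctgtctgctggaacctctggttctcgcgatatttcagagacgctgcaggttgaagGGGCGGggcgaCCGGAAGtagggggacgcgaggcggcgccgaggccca
Cct7: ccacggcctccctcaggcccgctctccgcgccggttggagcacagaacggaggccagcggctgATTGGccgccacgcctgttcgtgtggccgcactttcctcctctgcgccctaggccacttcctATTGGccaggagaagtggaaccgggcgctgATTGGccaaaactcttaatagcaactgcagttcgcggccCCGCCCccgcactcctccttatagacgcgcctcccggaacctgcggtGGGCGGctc

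The Cct8 stretch holds 1 GC box (GGGCGG) and 1 ETS core (CCGGAAG) and no CCAAT box (CCAAT), and the Cct7 stretch holds 3 CCAAT boxes and 2 GC boxes. Windows of 300 bases that reach 50 bases past the start were found for 7 of the 8 subunits, and Cct4 is not among them. These are 9 windows, since Cct2 and Cct5 have 2 each. A GC box was found in 8 of the 9, where 35.6% of all 32817 windows hold one, a CCAAT box in 4 of 9 (37.4% of all windows) and an ETS core in 3 of 9 (8.86%). The paired heat shock element units GAANNTTC and TTCNNGAA were in 1 and 2 of the 9 windows, Cct2 for the first and Cct5 and Cct6a for the second, where 7.86% and 8.51% of all windows hold them. Neither was in the Cct8 window. The motifs do not overlap each other in the 2 stretches printed, were chosen with the sequences in view, and are matches of letters only. The 9 windows held 47.3% to 67.7% G and C. The 32817 windows were not matched to them in base composition, and its part in these counts was not tested.

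Beyond the ring itself, 8 lists of genes that work with CCT or depend on it held 63 genes, of which 61 were tested. None was called by edgeR in any comparison, and none by DESeq2 or limma-voom. At an unadjusted p under 0.05 in edgeR, and with the same counts in DESeq2 and limma-voom, 2 of the 61 passed in Dp16 over WT, 9 in Dp16_2xIFNRs over WT and 2 in Dp16_2xIFNRs over Dp16, where 8.84%, 11.5% and 2.19% of all genes did. Without WT replicate 6, 2 of the 61 were called lower in Dp16_2xIFNRs over WT, the gamma tubulin gene Tubg2 at -0.20 (adjusted p = 0.0262) and the G protein subunit gene Gnb4 at -0.23 (adjusted p = 0.0372), in a fit that called 0.72% of all genes lower. With all libraries, where 0.31% of all genes were called lower, these stood at -0.17 (adjusted p = 0.132) and -0.17 (adjusted p = 0.336).

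Prefoldin hands unfolded actin and tubulin to CCT. Of its 6 subunit genes 2 were above and 4 below WT in Dp16, with a median of -0.00, and the same counts and a median of -0.00 were found in Dp16_2xIFNRs. Pfdn5 had 104 ± 8.68 CPM in Dp16, 101 ± 7.40 in Dp16_2xIFNRs and 114 ± 12.96 in WT, with differences of -0.13 (adjusted p = 0.646) and -0.17 (adjusted p = 0.368). The 3 phosducin-like cofactor genes, whose products bind CCT and help it with G protein and cytoskeletal clients, had medians of 0.05 in Dp16 and 0.06 in Dp16_2xIFNRs. Txndc9 differed by 0.05 (adjusted p = 0.876) and 0.06 (adjusted p = 0.714). Among the 3 tested chaperonin-like genes, Mkks, which takes part in assembly of the ciliary BBSome, had 10.2 ± 0.758 CPM in Dp16, 11.5 ± 1.06 in Dp16_2xIFNRs and 9.91 ± 0.454 in WT. Its differences were 0.04 (adjusted p = 0.947) and 0.22 (adjusted p = 0.157). The pair of mitochondrial chaperonin genes, Hspd1 and Hspe1, differed by 0.03 and 0.04 in Dp16 over WT and by 0.07 and 0.05 in Dp16_2xIFNRs over WT.

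The clients were followed through 16 actin and tubulin genes, with 8 above and 8 below WT in Dp16 and 12 above and 4 below in Dp16_2xIFNRs. Their medians were 0.01 and 0.02. The beta tubulin gene Tubb2a stood at 296 ± 12.3 CPM in Dp16 libraries and at 271 ± 6.79 in WT libraries, a difference of 0.13 (SE 0.0485, adjusted p = 0.397). In Dp16_2xIFNRs libraries Tubb2a stood at 274 ± 22.2 CPM. Tuba8 stood at 13.2 ± 1.56 CPM in Dp16 libraries and at 14.9 ± 1.27 in WT libraries, differing by -0.18 (SE 0.0757, adjusted p = 0.485). The 14 WD40 repeat and other clients had medians of -0.01 in both comparisons with WT, with 7 above WT in Dp16 and 5 in Dp16_2xIFNRs. Of 6 tubulin cofactor genes, 2 were above WT in Dp16 and 3 in Dp16_2xIFNRs, and Tbcd differed by -0.08 (adjusted p = 0.672) and -0.13 (adjusted p = 0.237). These are transcript levels, and the folding or amount of the client proteins was not measured.

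Heat shock factor HSF1 drives chaperone genes when unfolded protein accumulates. Of 11 such genes, 3 were above and 8 below WT in Dp16, with a median of -0.04, and 5 were above and 6 below in Dp16_2xIFNRs, with a median of -0.01. Hsp90ab1 stood at 1459.98 ± 86.5 CPM in Dp16 libraries and at 1505 ± 63.7 in WT libraries, differing by -0.04 (SE 0.0429, adjusted p = 0.868). The cochaperone gene Dnaja1 had 199 ± 10.9 CPM in Dp16, 211 ± 8.18 in Dp16_2xIFNRs and 195 ± 14.4 in WT. It differed from WT by 0.03 in Dp16 and by 0.12 in Dp16_2xIFNRs (SE 0.0446, adjusted p = 0.262 for the latter). In Dp16_2xIFNRs over Dp16, 10 of the 11 differences were positive, with a median of 0.06, and none was called.

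Of 45 cell type markers in 10 lists 43 were tested, and none was called by edgeR in any comparison. At an unadjusted p under 0.05, 4 passed in Dp16 over WT, 6 in Dp16_2xIFNRs over WT and 1 in Dp16_2xIFNRs over Dp16, of 43 each, beside 8.84%, 11.5% and 2.19% of all genes. The myelin gene Mobp stood at 326 ± 37.2 CPM in Dp16_2xIFNRs and 242 ± 30.0 in WT (difference 0.43, adjusted p = 0.0572), and DESeq2 (adjusted p = 0.00520) and limma-voom (adjusted p = 0.0448) called it. In this comparison DESeq2 called 243 of 18717 genes higher, limma-voom 140 and edgeR 138. Of 33 alternatives 11 called Mobp, among them edgeR on omission of WT replicate 5 (0.50, adjusted p = 0.0151), Dp16 replicate 1 (adjusted p = 0.0292), Dp16 replicate 2 (adjusted p = 0.0405) or Dp16_2xIFNRs replicate 6 (0.47, adjusted p = 0.0363). Without WT replicate 6 the microglia gene P2ry12 was called lower than WT, at -0.40 in Dp16 (adjusted p = 0.0223, against -0.29 and 0.434 with all libraries, and -0.37 and 0.0548 without Dp16 replicate 3 as well) and at -0.45 in Dp16_2xIFNRs (adjusted p = 0.00621, against -0.35 and 0.203). Without WT replicate 6, 0.164% of all genes were called lower in Dp16 and 0.72% in Dp16_2xIFNRs, against 0.112% and 0.31% with all libraries. The 5 oligodendrocyte markers summed to 4595 to 5848 CPM in Dp16, 4981 to 5493 in Dp16_2xIFNRs and 4220 to 5752 in WT, and the 5 microglia markers to 275 to 335, 274 to 316 and 232 to 355 CPM. The 5 astrocyte markers summed to 6037 to 7793 CPM in Dp16, 5894 to 7593 in Dp16_2xIFNRs and 5228 to 7662 in WT, and the 5 striatal markers to 249 to 675, 256 to 924 and 276 to 799.9 CPM. In bulk tissue fewer cells of a type and less RNA per cell cannot be told apart, and the part of cell composition in the subunit levels was not tested.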

How the data were processed

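Cortex RNA of 18 mice was analysed from tables that the authors deposited, with groups and sex taken from the labels. TRIzol extraction, poly(A) selection and strand-specific library preparation are given per the labels' protocols. HISAT2 2.1.0, HTSeq 0.6.1, SAMtools 1.5, FastQC 0.11.5 and bcl2fastq, and the build GRCm38, are named in the submitters' processing notes. How strand and reads matching several genes were treated is not given in the sources used here. The authors deposited raw counts per gene without normalization. The authors also deposited RPKM, which equalled count over library total and over 1 length per gene for 31735 of 31735 genes (relative tolerance 1e-06).

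Counts were filtered with filterByExpr (minimum count 10), normalized by TMM and tested with edgeR 4.0.16 (quasi-likelihood F test, robust) in R 4.3.3, in 1 fit of all 18 libraries on genotype plus sex. Calls needed a Benjamini-Hochberg adjusted p under 0.05 over the 18717 genes tested. Biological variation had a coefficient of 12.2%, on 14 residual degrees of freedom. SE and 95% intervals follow from the F statistic. Log2 CPM used a prior count of 2, and CPM refer to TMM-scaled libraries, except marker sums, which use library totals. Positions and principal transcripts are those of GENCODE release 21 (M21), while the deposited tables carry release 24, and 55144 of 55385 genes were placed. The segment spans 75540514 to 97962622 of chromosome 16. Alternatives used DESeq2 1.42.0, limma 3.58.1, other filters and scalings, single sexes and omission of libraries. The statistical scripts were tested on simulated data.

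The members and all lists were chosen with earlier results of these data known. Named were all members, their paralogues, the 4 nearest tested genes on each side of Cct8, the 5 most similar profiles, and of each list the called members or else up to 2 of smallest p, of which the text gives a part. Omission of both WT replicate 6 and Dp16 replicate 3, lengths of principal transcripts, and the number in the library names as a random block were chosen after seeing the data.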

Additional observations from a re-analysis of the deposited data

Results flagged for a closer look

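Of 30 sets of 6 libraries checked (each subunit's CPM, the Cct8 ratio and the Cct8 share per genotype), 1 had a library far from the others, and chance alone gives about 1 in 20. It was the Cct8 level in Dp16 replicate 4, at 174 CPM, where the other Dp16 libraries had 189 to 196 CPM. The gap made up 0.697 of the range, above the critical value of 0.625. The mean of the 7 partners was also lowest in this library among Dp16, at 6.60 log2 CPM, and its ratio of Cct8 to them, 0.84, lay within the Dp16 range of 0.75 to 0.86. Its endothelial and astrocyte markers summed to 491 and 7793 CPM, the highest of all libraries. Its GABAergic neuron and striatal markers summed to 785 and 249 CPM, the lowest of all libraries. The part of these in the low subunit levels was not tested.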

How the results depend on the processing

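Over 33 alternatives per comparison, Cct8 kept its call in both comparisons with WT, with log2 fold changes of 0.54 to 0.69 in Dp16 (adjusted p at most 0.00262) and 0.54 to 0.76 in Dp16_2xIFNRs (adjusted p at most 0.00262). None of the 7 partners was called under any of them. Leaving out 1 library at a time gave 0.60 to 0.64 in Dp16 over WT and 0.63 to 0.66 in Dp16_2xIFNRs over WT for Cct8, and differences of the log2 ratio to the partners of 0.61 to 0.64 and 0.59 to 0.62. Single sexes moved 2 values of Dp16_2xIFNRs over WT by more than the SD between libraries. The ratio difference was 0.56 in males and 0.66 in females, against 0.61 in all, and the difference in share 4.99 percentage points in males and 5.93 in females, against 5.46. The cause was not tested.

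The replicate numbers did not meet the criterion for pairing, a correlation above 0.1 in every pair. Of 18 pairs with the same number, 14 correlated above 0.1 in their deviations from the group means, with a range of -0.16 to 0.60. With the replicate number as a block Cct8 stood at 0.62 in Dp16 over WT (adjusted p = 1.99e-07), 0.64 in Dp16_2xIFNRs over WT (adjusted p = 1.56e-07) and 0.03 in Dp16_2xIFNRs over Dp16 (adjusted p = 0.999), and 0 partners were called. The 7 pairs of different genotype that share the number in their library names correlated at a median of 0.35 (-0.05 to 0.60), and 47 other pairs of the same sex at -0.07. With that number as a random block in limma-voom (correlation 0.25) Cct8 stood at 0.61 in Dp16 over WT (adjusted p = 2.49e-08) and 0.64 in Dp16_2xIFNRs over WT (adjusted p = 6.29e-09), and 0 partners were called.

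The number of called genes varied with the tool and with the libraries used. Fits of a single sex held 3 libraries per genotype in place of 6. The part of this smaller number in their calls was not tested. For Dp16 over WT it was 140 genes by edgeR, 137 by limma-voom, 247 by DESeq2, 51 in males and 42 in females. For Dp16_2xIFNRs over WT it was 196 by edgeR, 202 by limma-voom, 394 by DESeq2, 304 with the block, 41 in males, 74 in females and 121 without Dp16_2xIFNRs replicate 2. The 4 genes of Dp16_2xIFNRs over Dp16 became 0 in either sex alone. With 6 animals per genotype, differences of a few percent in a partner transcript could not be told from none.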
